A study of Angelica pubescens with 12 samples.

Results

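Plant cells grow by loosening a wall in which cellulose microfibrils lie in a matrix of xyloglucan and other polysaccharides, reinforced by structural proteins. The unigenes described here are those of Angelica pubescens root whose best Swiss-Prot match was named as an expansin, a xyloglucan enzyme, an endoglucanase, an extensin or a protein of the EXORDIUM family. A unigene is 1 assembled transcript sequence, known here by its identifier, in the format of the Trinity assembler, and its best protein match. The name before the organism had to contain expansin, xyloglucan, endoglucanase, extensin or EXORDIUM, and the unigene had to have at least 30 estimated counts over all libraries. This gave 107 of the 67432 unigenes, out of 109 whose name matched. The members comprised 32 xyloglucan endotransglucosylase/hydrolases (XTHs), 16 enzymes of xyloglucan synthesis, 24 endoglucanases, 13 alpha-expansins, 3 beta-expansins, 6 expansin-like proteins, 6 leucine-rich repeat extensins, 2 other extensins and 5 EXORDIUM-like proteins.

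Roots of the medicinal umbellifer A. pubescens were collected in 4 producing areas of China, and the design asked how expression differs between areas with unlike ecological conditions. The groups were root from Chongqing, root from Gansu, root from Shanxi and root from Hubei, each with 3 RNA-seq libraries from plants grown for 2 years. No treatment, genotype or cultivar is named in the labels for any group, so the areas differ in environment and possibly in plant stock, which cannot be told apart. The labels do not say that the 3 libraries of an area came from separate plants, and a p-value here reflects nothing beyond the scatter among the deposited samples, which might be purely technical.

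In the wall, xyloglucan is built in the Golgi from a glucan backbone to which xylose, galactose and acetyl groups are added in turn, and is then secreted. XTHs cut xyloglucan chains in the wall and rejoin them to other chains, endoglucanases cut glucan chains, and expansins loosen contacts between polysaccharides at acid pH without breaking chains. Extensins are hydroxyproline-rich glycoproteins that become cross-linked into the wall, and leucine-rich repeat extensins carry an additional domain that in Arabidopsis binds RALF signalling peptides. EXORDIUM proteins are secreted proteins of growing tissue that in Arabidopsis respond to brassinosteroids.

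The best Swiss-Prot match of a member came from Arabidopsis for 94 members, from rice for 7, from soybean for 2, from carrot for 2, and from avocado and azuki bean for 1 each. In the larger NR protein collection the best match was a carrot protein for 95 members, carrot being a relative in the same plant family. Domain annotation, which did not enter the choice of members, placed a glycosyl hydrolase family 16 domain in 27 of the 32 XTHs and the conserved C-terminal domain of these enzymes in 23. A family 9 glycosyl hydrolase domain was annotated in 14 of the 24 endoglucanases, and leucine-rich repeats in all 6 leucine-rich repeat extensins. The expansin domains are annotated as pollen allergen and lytic transglycolase. Of the 13 alpha-expansins, 10 had the former and 10 the latter, counted separately. All 3 beta-expansins had both, and of the 6 expansin-like proteins 4 had the former and 5 the latter. The 107 members matched 58 Swiss-Prot entries, and 26 entries were shared by 2 or more members, 75 members in all. Members that share an entry can be paralogs, alleles or pieces of 1 gene, and reads may have been shared or split between them, so the value of a single unigene is uncertain as a measure of its gene.

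Library totals lay between 19920182 and 23319714 estimated counts, and 3 counts in a library equal 0.123 to 0.152 CPM, a level scaled to library size. No pair of libraries from 1 area was alike within sampling noise (chi-square of 4.47 to 8.85 per degree of freedom). Of a root list of 37 unigenes, 28 were Scarecrow-like proteins, and its summed level was 736 to 778 CPM in Chongqing, 761 to 832 in Gansu, 694 to 716 in Shanxi and 676 to 741 in Hubei. Among its defining markers, Casparian strip membrane protein 1 (3 unigenes) stood at 0 in Chongqing, 8.94 CPM in Gansu, 0.185 in Shanxi and 0 in Hubei. Casparian strip membrane protein 3 reached 2.32 CPM in Chongqing, 1.08 in Gansu, 0.147 in Shanxi and 0.151 in Hubei. SHORT-ROOT (3 unigenes) summed to 4.91 CPM in Chongqing, 4.46 in Gansu, 5.14 in Shanxi and 7.53 in Hubei. Its unigenes went opposite ways. TRINITY_DN31637_c0_g1_i1_1 had 3.72 CPM in Chongqing and 2.26 in Hubei, whereas TRINITY_DN7853_c0_g1_i2_2 had 1.05 in Chongqing and 4.98 in Hubei. SCARECROW itself (2 unigenes) had 0.188 CPM in Chongqing, 0.459 in Gansu, 1.14 in Shanxi and 0.92 in Hubei. These markers thus did not share an order of areas. Summed phloem markers (23 unigenes) lay at 111 to 121 CPM in Chongqing, 302 to 320 in Gansu, 403 to 432 in Shanxi and 243 to 259 in Hubei. A PHLOEM PROTEIN 2-LIKE A1 unigene (TRINITY_DN21634_c0_g1_i2_4) alone gave 24.2 CPM in Chongqing, 205 in Gansu, 279 in Shanxi and 91.3 in Hubei. SIEVE ELEMENT OCCLUSION B (5 unigenes) was highest in Hubei, with 3.75, 6.70, 13.4 and 18.4 CPM in the same order. SUC2 was highest in Hubei too, with 26.7, 27.8, 29.6 and 48.3 CPM. Summed dividing-cell markers (14 unigenes) lay at 246 to 259 CPM in Chongqing, 133 to 137 in Gansu, 134 to 140 in Shanxi and 218 to 225 in Hubei. Of this sum, putative cyclin-B3-1 alone gave 86.4 CPM in Chongqing, 9.18 in Gansu, 11.5 in Shanxi and 104 in Hubei. Cyclin-B2-3 (2 unigenes) was lowest in Hubei, with 37.9, 29.5, 31.7 and 17.9 CPM in the same order. The dividing-cell markers thus did not share an order of areas. Gansu stood apart in the sum of xylem markers (19 unigenes), with 4.14 to 5.93 CPM in Chongqing, 11.96 to 13.6 in Gansu, 3.41 to 4.57 in Shanxi and 5.49 to 6.02 in Hubei. Only 8 of the 19 were high enough to be tested. Laccase-4 (3 unigenes) was lowest in Gansu, with 0.400, 0.392, 0.977 and 0.444 CPM in the same order. The other xylem descriptions were highest in Gansu, COBRA-like protein 4 only slightly, with 0.649 CPM against 0.576 in Hubei. Gansu also stood apart in the sum of leaf markers (16 unigenes). The sum was 397 to 421 CPM in Chongqing, 265 to 308 in Gansu, 415 to 446 in Shanxi and 377 to 421 in Hubei. Single leaf markers went opposite ways. Ribulose bisphosphate carboxylase small chain 7 had 20.7 CPM in Chongqing, 93.8 in Gansu, 249.6 in Shanxi and 1.44 in Hubei. Small chain P8 had 170, 76.6, 6.17 and 174 CPM in the same order. The part of these cell types in the results was not tested, and in bulk root fewer cells of a type cannot be told apart from less RNA per cell.

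Most members stood highest in Hubei roots and lower in Chongqing and Gansu roots. In edgeR's quasi-likelihood test, with p-values adjusted over all 60756 tested unigenes, 99 of the 102 tested members differed between areas at an adjusted p under 0.05, against 70.4% of all tested unigenes. In Chongqing roots relative to Hubei roots, 16 members were higher and 73 lower, while 23.6% of all tested unigenes were higher and 25.9% lower. Gansu roots had 21 members higher and 70 lower than Hubei roots, against 24.0% and 26.5% of all unigenes. Shanxi roots had 21 higher and 60 lower than Hubei roots, against 21.0% and 23.5% of all unigenes.

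The fewest members differed between Chongqing and Gansu, where the directions were mixed, while both areas stood mostly below Shanxi. Chongqing relative to Gansu had 35 members higher and 26 lower, against 19.4% and 19.1% of all tested unigenes. Chongqing relative to Shanxi had 18 members higher and 57 lower, against 23.0% and 24.8%, and Gansu relative to Shanxi had 16 higher and 56 lower, against 21.2% and 22.9%. With a minimum of 2-fold, Chongqing relative to Gansu had 19 members higher and 18 lower, against 12.3% and 13.3% of all tested unigenes. With that minimum, Chongqing relative to Shanxi had 10 higher and 49 lower, against 15.7% and 17.7%. The median log2 fold change of the 102 members was −2.51 in Chongqing, −2.79 in Gansu and −1.11 in Shanxi relative to Hubei. It was 0.02 in Chongqing relative to Gansu, −1.07 in Chongqing relative to Shanxi (−0.90 when a member without counts in 1 area takes its bound) and −1.19 in Gansu relative to Shanxi. Over all tested unigenes the median was 0.01 for Gansu relative to Hubei and 0.00 for the other pairs. These 6 comparisons share libraries, so their counts are not independent of one another. Of the 469 pairwise calls among 612 tests of members, 46 were lost when 1 library was left out, 78 had a fold change that moved by over 1.5 times without 1 library and 6 had overlapping libraries. The matching shares over all tested unigenes are not given here, so these counts do not set the members apart from other unigenes.

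**Figure D1:**
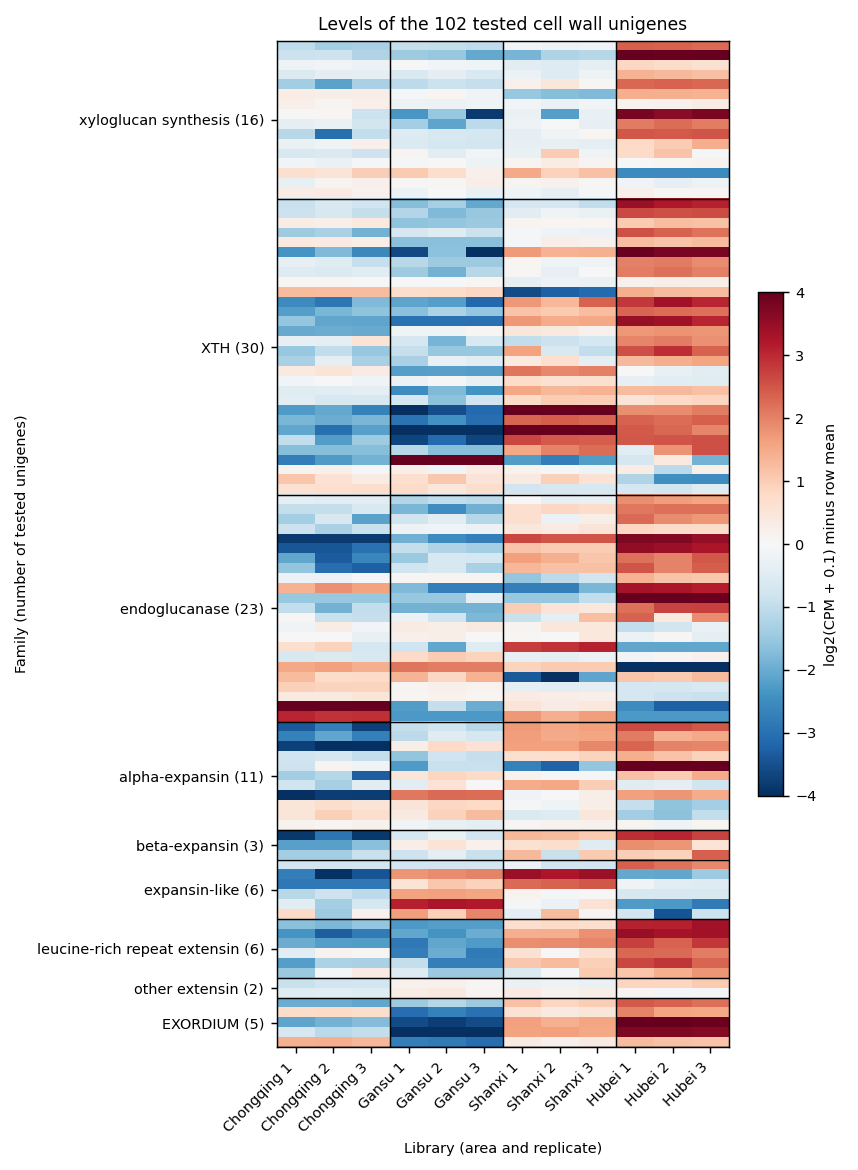
Each row is 1 of the 102 tested members, grouped by family with the number of members in brackets, and each column 1 library; colour gives log2(CPM + 0.1) minus the row mean, from blue (4 below) to red (4 above). Most rows are red in the Hubei libraries, and the expansin-like rows are red mainly in Gansu and Shanxi.

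The heat map of all tested members shows this order and its exceptions. By mean CPM, 8 members were highest in Chongqing, 14 in Gansu, 17 in Shanxi and 63 in Hubei, whereas 25.0%, 23.7%, 24.1% and 27.3% of all tested unigenes were highest in these areas. The lowest mean was in Chongqing for 36 members, in Gansu for 39, in Shanxi for 11 and in Hubei for 16, against 26.8%, 23.4%, 23.5% and 26.2% of all tested unigenes. Every library of the area stood above all others for 5 members in Chongqing, 6 in Gansu, 9 in Shanxi and 56 in Hubei, against 10.6%, 8.73%, 10.6% and 14.6% of all tested unigenes. Every library stood below all others for 24 members in Chongqing, 24 in Gansu, 6 in Shanxi and 11 in Hubei, against 8.64%, 7.39%, 7.21% and 8.4%. For 41 members all 6 Chongqing and Gansu libraries lay below all 6 Shanxi and Hubei libraries (9.06% of all unigenes), and for 4 members the order was turned round (7.69%). The summed level of the 107 members was 3419 to 3615 CPM in Chongqing, 3949 to 4476 in Gansu, 5365 to 5892 in Shanxi and 6988 to 7411 in Hubei. The ranges of the 4 areas did not overlap.

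**Figure D2:**
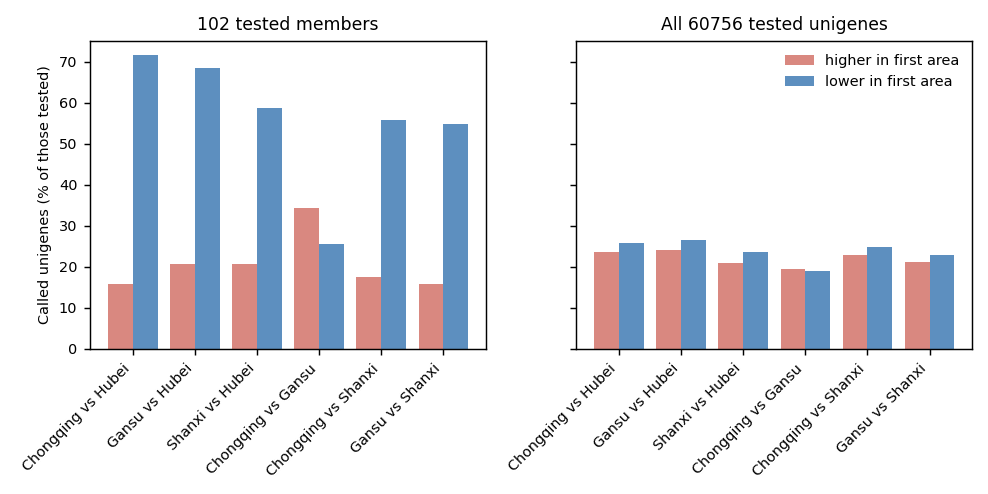
Bars give the share of unigenes called higher (red) or lower (blue) in the first area of each pair, in percent of those tested, for the 102 tested members (left) and for all 60756 tested unigenes (right). In Chongqing relative to Hubei 71.6% of the members were lower and 15.7% higher, while the bars for all unigenes are nearly even in each pair.

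Members with the same Swiss-Prot entry were also added together. Of the 57 entries that could be tested in this way, 9 were higher and 44 lower in Chongqing than in Hubei, against 35.1% and 37.5% of the 11644 entries of the whole assembly. In Gansu relative to Hubei 12 entries were higher and 40 lower, against 35.1% and 37.4%. In Shanxi relative to Hubei 12 were higher and 37 lower, against 33.3% and 34.3%. In Chongqing relative to Shanxi 11 were higher and 33 lower, against 33.5% and 38.1%. In Chongqing relative to Gansu 22 were higher and 18 lower, against 30.6% for each direction, and in Gansu relative to Shanxi 11 were higher and 34 lower, against 33.0% and 36.4%. Some area difference was called for 56 of the 57 entries, against 91.1% of all entries. For 10 entries, the tested members did not all have the same highest area.

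The unigene identifiers end in a number from 1 to 4 whose meaning is not given in the sources used here, and this number moved with the area. Among all tested unigenes, those ending in 1 were highest in Chongqing in 51.1% of cases, those ending in 2 in Hubei in 53.1%, those ending in 3 in Hubei in 33.8% and those ending in 4 in Shanxi in 43.3%. Among the members, Hubei was the highest area for 6 of 20 ending in 1, 27 of 32 ending in 2, 21 of 33 ending in 3 and 9 of 17 ending in 4. The share of all tested unigenes highest in Hubei was 12.2%, 53.1%, 33.8% and 13.8% for these endings. Members lower in Chongqing than in Hubei numbered 8 of 20, 30 of 32, 26 of 33 and 9 of 17, against 9.08%, 40.9%, 33.8% and 21.7% of all tested unigenes with the same ending. In Gansu relative to Hubei, lower members numbered 9 of 20, 28 of 32, 26 of 33 and 7 of 17, against 15.7%, 47.8%, 28.5% and 16.9%. Identifiers that differ after the gene number rarely held the same gene. Of 3934 identifiers with 2 or more described sequences once that number and the isoform were removed, 2 had the same Swiss-Prot entry throughout. The part of the final number in the area differences was not tested.

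Enzymes of xyloglucan synthesis were mostly lower outside Hubei, and the glucan backbone synthases differed most from it. Of the 16 unigenes, 1 was higher and 11 lower in Chongqing, 1 higher and 12 lower in Gansu, and 1 higher and 12 lower in Shanxi than in Hubei. Over all tested unigenes, 23.6% were higher and 25.9% lower in Chongqing, 24.0% and 26.5% in Gansu, and 21.0% and 23.5% in Shanxi. These shares also apply beside the counts of each family below. Medians of the log2 fold changes of the 16 unigenes were −1.31, −1.64 and −1.55 for Chongqing, Gansu and Shanxi relative to Hubei. Levels are compared between unigenes as FPKM, which scales reads by depth and by the length of the unigene, and ± gives the SD over 3 libraries unless SE is stated. The 6 unigenes of glucan backbone synthases summed to 17.7 ± 1.40 FPKM in Chongqing, 16.8 ± 0.718 in Gansu, 25.1 ± 2.87 in Shanxi and 185 ± 11.7 in Hubei.

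The backbone is made by glucan synthases that Swiss-Prot names xyloglucan glycosyltransferases, of which number 4 is CSLC4 of Arabidopsis. Its most abundant unigene (TRINITY_DN16970_c0_g1_i2_3) had 8.57, 8.80 and 6.65 CPM in the Chongqing libraries, 5.75, 5.43 and 3.66 in Gansu, 4.26, 6.57 and 7.05 in Shanxi and 247, 244 and 271 in Hubei. The 3 Hubei libraries stood far above the other 9, among which the areas lay close together. Relative to Hubei, the log2 fold change was −4.99 ± 0.18 in Chongqing, −5.69 ± 0.19 in Gansu and −5.41 ± 0.18 in Shanxi (SE; adjusted p = 7.83e-11, 4.27e-11 and 1.01e-10). A second unigene with this name (TRINITY_DN16173_c0_g1_i4_4) had 5.83, 3.40 and 6.23 CPM in the Chongqing libraries, 7.40, 8.42 and 8.14 in Gansu, 17.5, 21.2 and 16.1 in Shanxi and 76.8, 78.7 and 76.5 in Hubei, again with Hubei above all others and with Shanxi above Chongqing and Gansu. Unigenes matched to glycosyltransferases 1 and 12 (TRINITY_DN20952_c0_g1_i15_2, TRINITY_DN20952_c0_g2_i1_2 and TRINITY_DN18924_c0_g1_i1_4) were lower in every other area than in Hubei. Glycosyltransferase 6 (TRINITY_DN8084_c0_g1_i2_1) was among the members with the smallest spread of area means, with 18.5 ± 1.49 CPM in Chongqing, 19.1 ± 1.28 in Gansu, 23.2 ± 1.79 in Shanxi and 21.5 ± 1.04 in Hubei.

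Xylose is added to the backbone by xylosyltransferases, of which several are known to act on xyloglucan in Arabidopsis. The unigene of xylosyltransferase 1 (TRINITY_DN18310_c0_g1_i2_2) had 19.6, 15.4 and 15.97 CPM in the Chongqing libraries, 20.9, 20.5 and 19.5 in Gansu, 36.4, 34.1 and 35.9 in Shanxi and 206, 206 and 193 in Hubei. Hubei libraries stood above Shanxi libraries, which stood above those of Gansu and Chongqing. The log2 difference from Hubei was −3.57 ± 0.09 in Chongqing, −3.31 ± 0.09 in Gansu and −2.50 ± 0.08 in Shanxi (SE; adjusted p = 3.59e-12, 7.35e-12 and 9.71e-11). Its close relative xylosyltransferase 2 (TRINITY_DN20172_c0_g2_i1_3) had 59.6, 60.8 and 55.03 CPM in the Chongqing libraries, 41.5, 47.6 and 39.2 in Gansu, 42.8, 38.6 and 46.1 in Shanxi and 56.2, 49.6 and 50.4 in Hubei, so that the Chongqing and Hubei libraries overlapped. In Chongqing relative to Hubei the log2 fold change was 0.17 ± 0.09 (SE, adjusted p = 0.147) and did not pass the test, although limma on log2 FPKM called it. It was −0.29 ± 0.09 (SE, adjusted p = 0.0189) in Gansu and −0.29 ± 0.09 (SE, adjusted p = 0.0189) in Shanxi. The Gansu call was lost without Gansu 1, Gansu 3 or Hubei 1, and the Shanxi call without Shanxi 1, Shanxi 2 or Hubei 1. Xylosyltransferase 5 (TRINITY_DN24099_c2_g8_i3_3) had 21.2 ± 1.62 CPM in Chongqing, 20.1 ± 2.15 in Gansu, 23.3 ± 2.66 in Shanxi and 71.4 ± 5.14 in Hubei.

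Galactose is then added by MUR3 and XLT2, which act on different xylose residues. MUR3 (TRINITY_DN9400_c0_g1_i1_2) had 33.2, 35.1 and 32.5 CPM in the Chongqing libraries, 37.4, 34.98 and 33.4 in Gansu, 28, 26.3 and 28.98 in Shanxi and 67.1, 62.96 and 58.01 in Hubei, with Hubei above all other libraries and Shanxi below them. Set against Hubei, its log2 fold change was −0.90 ± 0.08 in Chongqing, −0.83 ± 0.08 in Gansu and −1.18 ± 0.08 in Shanxi (SE; adjusted p = 4.28e-07, 9.76e-07 and 4.83e-08). XLT2 (TRINITY_DN19133_c0_g1_i1_2) had 20.02, 18.99 and 19.2 CPM in the Chongqing libraries, 15.6, 17.1 and 14.8 in Gansu, 5.56, 4.91 and 4.63 in Shanxi and 44.8, 43.7 and 42.04 in Hubei. Its areas did not overlap, with Hubei highest and Shanxi lowest. The log2 fold change of XLT2 was −3.11 ± 0.10 (SE, adjusted p = 5.41e-11) in Shanxi relative to Hubei and 1.95 ± 0.10 (SE, adjusted p = 2.52e-09) in Chongqing relative to Shanxi. A second MUR3 unigene (TRINITY_DN891_c0_g1_i1_1) had 8.80 ± 1.52 CPM in Chongqing, 9.38 ± 0.882 in Gansu, 9.28 ± 0.423 in Shanxi and 7.40 ± 0.459 in Hubei and did not differ between areas in the overall test (adjusted p = 0.161).

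Acetyl groups are put on the galactose by ALTERED XYLOGLUCAN 4. Its unigene (TRINITY_DN16637_c0_g1_i1_3) was lower outside Hubei, with 4.60 ± 0.833 CPM in Chongqing, 2.96 ± 0.178 in Gansu, 3.74 ± 0.123 in Shanxi and 10.4 ± 2.51 in Hubei. A unigene of the related ALTERED XYLOGLUCAN 4-like protein (TRINITY_DN11362_c0_g1_i1_4) went the other way. It had 61 counts over the Chongqing libraries, 54 over the Gansu libraries, 87 over the Shanxi libraries and 0 over the Hubei libraries. Against a floor of 3 counts over the 3 Hubei libraries, it was at least 19.6-fold higher in Chongqing, at least 18.8-fold higher in Gansu and at least 28.5-fold higher in Shanxi. Adjusted p-values were 2.82e-05, 3.06e-05 and 1.66e-05.

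**Figure D3:**
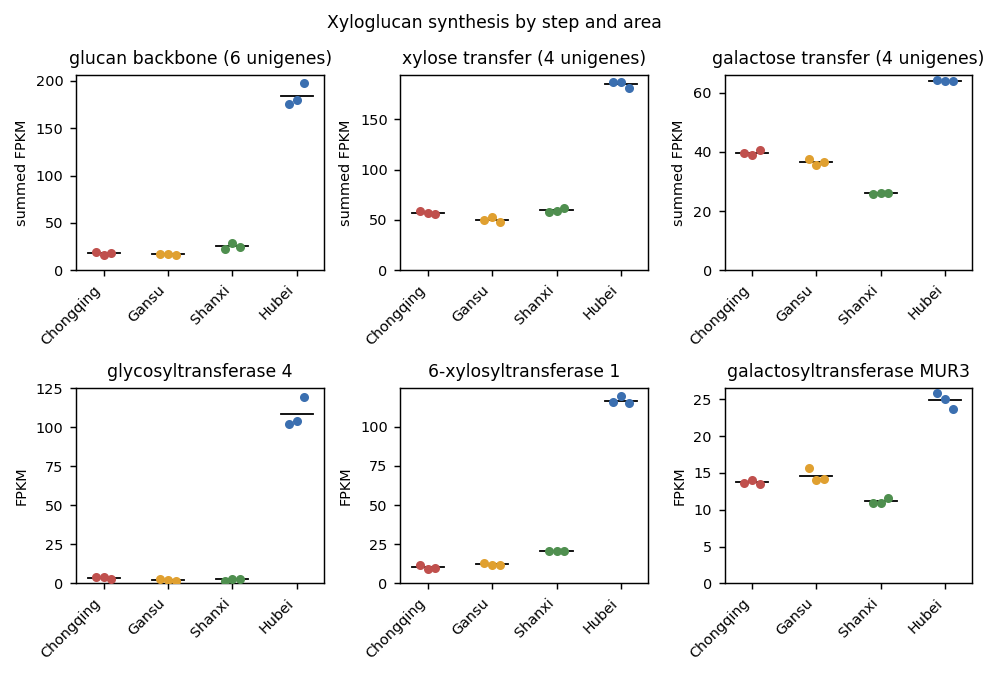
The upper panels give summed FPKM of the unigenes of 3 synthesis steps, the lower panels FPKM of a leading unigene of each step (glycosyltransferase 4, xylosyltransferase 1 and MUR3); points are libraries, lines area means, and axes start at 0. Backbone synthases had mean sums of 25.1 FPKM or less outside Hubei and 184.5 in Hubei, whereas galactose transfer had its lowest sums in Shanxi.

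The plot by step sets these sums side by side. Xylosyltransferases summed to 57.2 ± 1.41 FPKM in Chongqing, 50.2 ± 2.14 in Gansu, 59.6 ± 2.06 in Shanxi and 185 ± 3.68 in Hubei. Galactosyltransferases summed to 39.8 ± 0.793 FPKM in Chongqing, 36.5 ± 0.974 in Gansu, 26.01 ± 0.124 in Shanxi and 64.1 ± 0.182 in Hubei. Among these 3 sums in FPKM, the backbone step had the widest gap between each of the other areas and Hubei.

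XTHs were the largest family, and their summed level was low in Chongqing and Gansu roots and high in Shanxi and Hubei roots. Of 30 tested XTH unigenes, 4 were higher and 23 lower in Chongqing, 4 higher and 24 lower in Gansu, and 5 higher and 17 lower in Shanxi than in Hubei. The family summed to 414 ± 5.42 FPKM in Chongqing, 203 ± 2.11 in Gansu, 1139 ± 19.2 in Shanxi and 1006 ± 22.9 in Hubei. Gansu had the lowest mean for 17 of the 30, against 23.4% of all tested unigenes. Hubei had the highest mean for 17 of the 30 and Shanxi for 9, against 27.3% and 24.1% of all tested unigenes. All 6 Chongqing and Gansu libraries lay below all Shanxi and Hubei libraries for 16 of the 30, against 9.06% of all tested unigenes.

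XTH9, the most abundant XTH by FPKM (TRINITY_DN22600_c0_g4_i1_1), led in Shanxi, with 208, 225 and 201 CPM in the Chongqing libraries, 34.5, 35.3 and 34.5 in Gansu, 694, 606 and 636 in Shanxi and 156, 129.5 and 117 in Hubei. The areas did not overlap, and their order was Shanxi, Chongqing, Hubei and Gansu. The log2 fold change was 2.27 ± 0.10 (SE, adjusted p = 7.73e-10) in Shanxi and 0.66 ± 0.09 (SE, adjusted p = 5.28e-05) in Chongqing relative to Hubei, and −4.21 ± 0.11 (SE, adjusted p = 5.07e-12) in Gansu relative to Shanxi. Another XTH9 unigene (TRINITY_DN22994_c0_g9_i1_2) had 30.04 ± 0.939 CPM in Chongqing, 8.87 ± 2.57 in Gansu, 109.6 ± 8.13 in Shanxi and 96.8 ± 4.31 in Hubei. Over all 7 unigenes with the XTH9 entry the sum was 265 ± 12.2 CPM in Chongqing, 91.03 ± 1.85 in Gansu, 838 ± 50.3 in Shanxi and 389 ± 21.7 in Hubei, so that for the sum Chongqing stood below Hubei.

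XTH7 contrasted Shanxi with Chongqing and Gansu. One unigene (TRINITY_DN32284_c0_g1_i1_1) had 0.686, 0.305 and 0.635 CPM in the Chongqing libraries, 0, 0.0507 and 0.0411 in Gansu, 99.1, 88.3 and 99.6 in Shanxi and 17.9, 16.1 and 12.7 in Hubei. Shanxi stood above Hubei, and Hubei stood far above the other areas, where it was close to absent. The fitted log2 fold change was 2.62 ± 0.14 (SE, adjusted p = 7.76e-09) in Shanxi relative to Hubei and −7.45 ± 0.21 (SE, adjusted p = 1.09e-11) in Chongqing relative to Shanxi. With 2 counts over the Gansu libraries, the ratio of Shanxi to Gansu was 3086 (exact 95% counting interval 854 to 25490.0). A second XTH7 unigene (TRINITY_DN16585_c0_g1_i2_3) had 1.12, 1.31 and 0.805 CPM in the Chongqing libraries, 0.0487, 0.406 and 0.575 in Gansu, 129.6, 122 and 118 in Shanxi and 21.1, 21.8 and 24.4 in Hubei, in the same order of areas. In Chongqing relative to Shanxi its log2 fold change was −6.83 ± 0.21 (SE, adjusted p = 2.39e-11).

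XTH33 (TRINITY_DN15739_c0_g1_i2_1) separated the areas into pairs, with 3.64, 3.22 and 3.64 CPM in the Chongqing libraries, 1.61, 2.38 and 1.52 in Gansu, 66.1, 71.1 and 66.02 in Shanxi and 67.3, 62.3 and 69.7 in Hubei. Shanxi and Hubei libraries overlapped and stood above all Chongqing and Gansu libraries. Its log2 fold change came to −4.24 ± 0.12 (SE, adjusted p = 9.35e-12) in Chongqing and −5.19 ± 0.13 (SE, adjusted p = 4.37e-12) in Gansu relative to Hubei. XTH30 (TRINITY_DN14223_c0_g1_i1_4) had 76.04 ± 4.44 CPM in Chongqing, 69.9 ± 6.43 in Gansu, 126 ± 6.63 in Shanxi and 59.9 ± 3.45 in Hubei, and its log2 fold change in Shanxi relative to Hubei was 1.07 ± 0.08 (SE, adjusted p = 1.49e-07).

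A further set of XTHs had its highest level in Hubei. XTH15, which in Arabidopsis responds to shade and takes part in stem elongation, had a unigene (TRINITY_DN23498_c0_g1_i12_2) with 14.5, 17.9 and 15.5 CPM in the Chongqing libraries, 8.18, 10.8 and 6.53 in Gansu, 17.1, 16.9 and 13.7 in Shanxi and 298, 251 and 228 in Hubei. The 3 Hubei libraries stood above the other 9. The fitted log2 fold change relative to Hubei was −4.02 ± 0.16 in Chongqing, −4.94 ± 0.17 in Gansu and −4.03 ± 0.16 in Shanxi (SE; adjusted p = 2.49e-10, 7.24e-11 and 4.69e-10). XTH23 (TRINITY_DN21414_c0_g1_i2_3) had 7.78 ± 1.57 CPM in Chongqing, 14.1 ± 1.83 in Gansu, 20.1 ± 1.20 in Shanxi and 117 ± 14.7 in Hubei, and its log2 fold change in Chongqing relative to Hubei was −3.91 ± 0.15 (SE, adjusted p = 1.74e-10). XTH27 (TRINITY_DN19714_c0_g2_i2_2) had 17.6 ± 2.03 CPM in Chongqing, 11.3 ± 2.40 in Gansu, 25.7 ± 2.09 in Shanxi and 191 ± 4.68 in Hubei. Its level outside Hubei stayed low in all areas. XTH28 (TRINITY_DN19948_c0_g1_i2_1) had 59.1 ± 3.62 CPM in Chongqing, 16.3 ± 0.620 in Gansu, 51.4 ± 0.623 in Shanxi and 108 ± 6.63 in Hubei. A second XTH28 unigene (TRINITY_DN19714_c0_g1_i1_2) was likewise highest in Hubei and lowest in Gansu. It had 35.8 ± 1.59 CPM in Chongqing, 8.86 ± 0.0650 in Gansu, 31.2 ± 3.39 in Shanxi and 66.3 ± 3.13 in Hubei, and in Chongqing relative to Gansu a log2 fold change of 2.01 ± 0.09 (SE, adjusted p = 1.64e-09).

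XTH32, of the group of XTHs thought to act mainly as hydrolases, had a leading unigene that ran against most of the family. Its most abundant unigene (TRINITY_DN22969_c0_g3_i14_2) had 136, 141 and 144 CPM in the Chongqing libraries, 152, 121 and 146 in Gansu, 52.6, 56.8 and 57.2 in Shanxi and 55.3, 52.9 and 62.9 in Hubei. Every Chongqing and Gansu library stood above every Shanxi and Hubei library. On the log2 scale it differed from Hubei by 1.30 ± 0.09 (SE, adjusted p = 6.02e-08) in Chongqing and 1.29 ± 0.09 (SE, adjusted p = 6.77e-08) in Gansu. Another XTH32 unigene (TRINITY_DN17006_c0_g1_i4_1) was low in Shanxi alone, with 21.9, 21.7 and 21.3 CPM in the Chongqing libraries, 14.7, 15.3 and 16.3 in Gansu, 0.672, 0.847 and 0.969 in Shanxi and 24.9, 21.7 and 21.6 in Hubei and a log2 fold change of −4.77 ± 0.14 (SE, adjusted p = 3.01e-11) in Shanxi relative to Hubei. Summed over the 7 unigenes with this entry, XTH32 had 163 ± 3.77 CPM in Chongqing, 157 ± 16.8 in Gansu, 60.04 ± 2.54 in Shanxi and 91.4 ± 4.64 in Hubei.

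An XTH9 unigene (TRINITY_DN24950_c0_g3_i3_3) had most of its counts in Gansu, with 3 counts over the Chongqing libraries, 1937 over the Gansu libraries, 2 over the Shanxi libraries and 27 over the Hubei libraries. The ratio of Gansu to Chongqing was 699 (exact 95% counting interval 239 to 3391), and that of Gansu to Shanxi was 1029 (285 to 8504). In Gansu relative to Hubei its log2 fold change was 6.20 ± 0.40 (SE, adjusted p = 3.02e-08), and 7.17 without Hubei 2, the Hubei library with the most counts.

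Endoglucanases were mixed, with both Hubei-high and Chongqing-high unigenes under the same name. Of 23 tested unigenes, 7 were higher and 14 lower in Chongqing, 7 higher and 13 lower in Gansu, and 7 higher and 14 lower in Shanxi than in Hubei. In each of these areas 30.4% were thus higher, against 23.6%, 24.0% and 21.0% of all tested unigenes. Lower unigenes made up 60.9%, 56.5% and 60.9%, against 25.9%, 26.5% and 23.5%. The family summed to 132 ± 4.04 FPKM in Chongqing, 108 ± 2.36 in Gansu, 132 ± 1.32 in Shanxi and 281 ± 5.40 in Hubei.

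Endoglucanase 25, known as KORRIGAN in Arabidopsis, is a membrane-bound enzyme needed for cellulose synthesis, and 6 unigenes matched it. The most abundant (TRINITY_DN19300_c0_g2_i1_1) had 39.5, 36.98 and 37.1 CPM in the Chongqing libraries, 22.3, 25.2 and 24.1 in Gansu, 50.2, 39.98 and 41.1 in Shanxi and 182, 159 and 151 in Hubei, with Hubei above all other libraries. Relative to Hubei, the log2 fold change was −2.11 ± 0.10 in Chongqing, −2.78 ± 0.10 in Gansu and −1.91 ± 0.10 in Shanxi (SE; adjusted p = 1.08e-09, 1.18e-10 and 4.44e-09). A second one (TRINITY_DN19527_c0_g1_i1_2) had 17.5, 17.4 and 21.9 CPM in the Chongqing libraries, 9.40, 5.98 and 8.88 in Gansu, 53.2, 59.8 and 56.5 in Shanxi and 146, 157 and 156 in Hubei, in the order Hubei, Shanxi, Chongqing and Gansu with no overlap. The log2 difference from Hubei was −3.01 ± 0.13 in Chongqing, −4.23 ± 0.14 in Gansu and −1.43 ± 0.12 in Shanxi (SE; adjusted p = 6.06e-10, 5.87e-11 and 6.20e-07). The same held in direction for another (TRINITY_DN22085_c0_g1_i5_3), with 5.30 ± 2.72 CPM in Chongqing, 7.35 ± 1.76 in Gansu, 15.3 ± 4.76 in Shanxi and 50.6 ± 9.99 in Hubei.

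The other endoglucanase 25 unigenes were highest in Chongqing. One (TRINITY_DN8601_c0_g1_i1_1) had 88.4, 84.8 and 84.4 CPM in the Chongqing libraries, 49.3, 52.9 and 49.96 in Gansu, 35.4, 33.8 and 35.4 in Shanxi and 28.03, 28 and 29.8 in Hubei. Chongqing stood above Gansu, Gansu above Shanxi and Shanxi above Hubei, without overlap. Set against Hubei, its log2 fold change was 1.59 ± 0.06 in Chongqing, 0.83 ± 0.06 in Gansu and 0.29 ± 0.06 in Shanxi (SE; adjusted p = 1.95e-10, 1.30e-07 and 0.00198). A second (TRINITY_DN18129_c0_g1_i1_1) had 29.4, 27.3 and 25.4 CPM in the Chongqing libraries, 0.195, 0.608 and 0.247 in Gansu, 1.88, 1.61 and 1.76 in Shanxi and 0.140, 0.0446 and 0.0427 in Hubei, so that Chongqing stood far above all other areas. On the log2 scale the change was 3.96 ± 0.23 (SE, adjusted p = 1.17e-08) in Chongqing relative to Shanxi and 6.30 ± 0.28 (SE, adjusted p = 1.68e-09) in Chongqing relative to Gansu, or 6.92 without Gansu 2. Another (TRINITY_DN27254_c0_g1_i1_1) had 256 counts over the Chongqing libraries, 0 over the Gansu libraries, 96 over the Shanxi libraries and 0 over the Hubei libraries. Against the floor of 3 counts it was at least 82.2-fold higher in Chongqing than in Hubei and at least 78.9-fold higher than in Gansu.

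**Figure D4:**
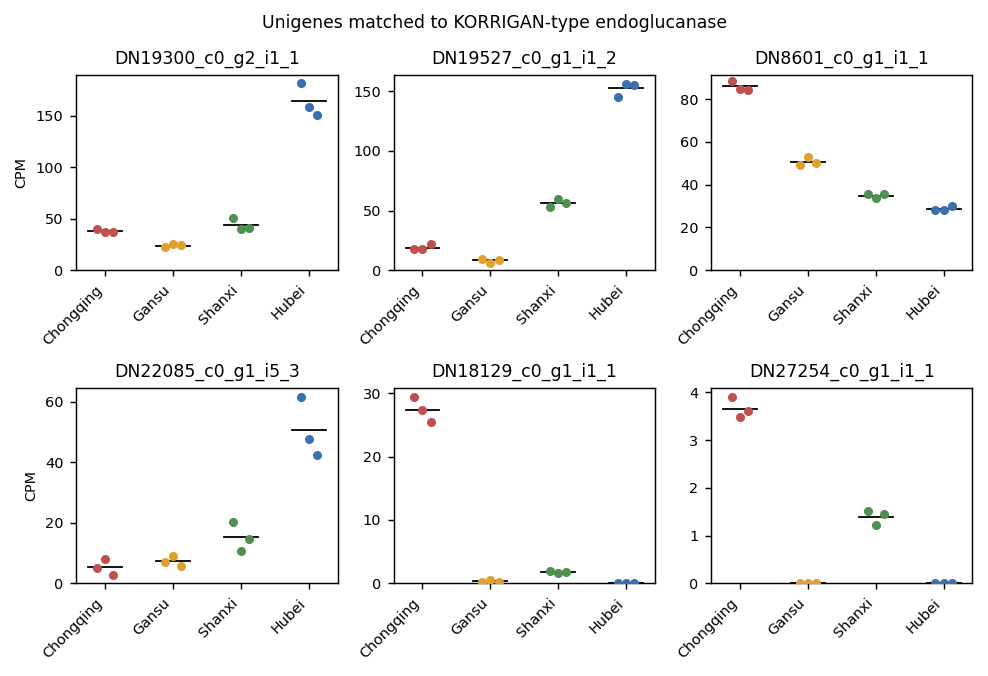
CPM of the 6 unigenes matched to endoglucanase 25 by area, each panel headed by its assembly identifier; points are libraries, lines area means, and axes start at 0. The panels for DN19300, DN19527 and DN22085 peak in Hubei, and those for DN8601, DN18129 and DN27254 peak in Chongqing.

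The plot of the endoglucanase 25 unigenes shows both patterns under 1 name. Their summed level was 179 ± 4.30 CPM in Chongqing, 90.3 ± 3.05 in Gansu, 154 ± 7.95 in Shanxi and 396 ± 19.8 in Hubei, the sum in Chongqing being below that in Hubei although 3 of the 6 were higher in Chongqing. Endoglucanase 6, with 7 unigenes that led in 4 different areas, summed to 50.01 ± 1.89 CPM in Chongqing, 66.7 ± 1.83 in Gansu, 65 ± 0.717 in Shanxi and 67.5 ± 7.55 in Hubei. Its unigene TRINITY_DN22005_c0_g1_i17_2 had 20.5 ± 0.800 CPM in Chongqing, 16.4 ± 0.391 in Gansu, 18.4 ± 0.689 in Shanxi and 8.66 ± 0.574 in Hubei, with a log2 fold change of 1.24 ± 0.09 (SE, adjusted p = 9.34e-08) in Chongqing relative to Hubei. Its unigene TRINITY_DN25629_c0_g5_i3_3 was highest in Gansu. It had 7.63 ± 0.146 CPM in Chongqing, 21.8 ± 1.90 in Gansu, 9.50 ± 0.454 in Shanxi and 12.1 ± 1.15 in Hubei and a log2 fold change of 1.20 ± 0.11 (SE, adjusted p = 1.15e-06) in Gansu relative to Shanxi. Another, TRINITY_DN23688_c0_g2_i4_4, had 17.3 ± 2.99 CPM in Chongqing, 20.97 ± 0.590 in Gansu, 21.3 ± 2.60 in Shanxi and 10.8 ± 2.80 in Hubei, with a log2 fold change of 0.95 ± 0.17 (SE, adjusted p = 4.49e-04) in Gansu relative to Hubei.

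Other endoglucanases were close to 0 in some areas. Endoglucanase 1 (TRINITY_DN15018_c0_g1_i1_3) had 0.0429, 0.0436 and 0.0424 CPM in the Chongqing libraries, 0.438, 0.254 and 0.205 in Gansu, 12.8, 11.4 and 11.5 in Shanxi and 27.2, 26.3 and 23.1 in Hubei. Its Shanxi and Hubei libraries stood far above those of Chongqing and Gansu. The log2 difference was −6.41 ± 0.20 (SE, adjusted p = 3.17e-11) in Gansu and −1.10 ± 0.13 (SE, adjusted p = 1.84e-05) in Shanxi relative to Hubei. Endoglucanase 17 (TRINITY_DN21684_c0_g2_i1_2) had 0.157 ± 0.0475 CPM in Chongqing, 0.998 ± 0.156 in Gansu, 5.06 ± 0.275 in Shanxi and 26.1 ± 2.47 in Hubei. Endoglucanase 9 (TRINITY_DN11583_c0_g1_i3_1) ran the other way, with 561 counts over the Chongqing libraries, 754 over the Gansu libraries, 373 over the Shanxi libraries and 1 over the Hubei libraries. Its ratio to Hubei was 540.4 in Chongqing (exact 95% counting interval 96.6 to 21380.0). Endoglucanase 15 (TRINITY_DN22849_c0_g4_i1_2) had 0 counts in Chongqing, 3 in Gansu, 1 in Shanxi and 307 in Hubei, and was at least 106-fold lower in Chongqing than in Hubei against the floor.

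Alpha-expansins were scarce in Chongqing roots and differed in which of the other areas led. Of 11 tested unigenes, 2 were higher and 7 lower in Chongqing, 3 higher and 6 lower in Gansu, and 3 higher and 4 lower in Shanxi than in Hubei. The family summed to 24.1 ± 0.841 FPKM in Chongqing, 57.6 ± 3.56 in Gansu, 72.5 ± 3.60 in Shanxi and 113 ± 5.01 in Hubei. Chongqing had the lowest mean for 6 of the 11, against 26.8% of all tested unigenes.

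Expansin-A4 (TRINITY_DN16805_c0_g1_i1_3) had 0.472, 0.784 and 0.339 CPM in the Chongqing libraries, 3.02, 3.30 and 2.63 in Gansu, 18.9, 17.3 and 18.3 in Shanxi and 36.4, 36.7 and 32.95 in Hubei. The areas did not overlap and ran Hubei, Shanxi, Gansu and Chongqing. The fitted log2 fold change relative to Hubei was −6.04 ± 0.19 in Chongqing, −3.57 ± 0.16 in Gansu and −0.96 ± 0.13 in Shanxi (SE; adjusted p = 3.13e-11, 6.36e-10 and 5.65e-05). Expansin-A1 (TRINITY_DN16548_c0_g2_i1_4) led in Gansu instead, with 0.214, 0.305 and 0.297 CPM in the Chongqing libraries, 23.4, 26.4 and 25.6 in Gansu, 4.88, 5.46 and 6.34 in Shanxi and 16.9, 18.6 and 15.1 in Hubei. The Gansu libraries stood above all others and the Chongqing libraries below. The log2 fold change was 0.57 ± 0.12 (SE, adjusted p = 0.00154) in Gansu relative to Hubei and −6.50 ± 0.19 (SE, adjusted p = 3.73e-11) in Chongqing relative to Gansu. Expansin-A10 (TRINITY_DN17360_c0_g1_i1_3) had 0.172, 0.0436 and 0.0424 CPM in the Chongqing libraries, 4.14, 6.08 and 5.26 in Gansu, 11.02, 11.01 and 13.4 in Shanxi and 18.02, 14.1 and 13.8 in Hubei, with the Chongqing libraries far below all others. In Gansu relative to Hubei the log2 fold change was −1.57 ± 0.20 (SE, adjusted p = 2.05e-05), and in Chongqing relative to Hubei it was −7.39 ± 0.33 (SE, adjusted p = 7.79e-10), or −8.31 without Chongqing 1.

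Expansin-A6 (TRINITY_DN15513_c0_g1_i2_2) was high in Hubei alone, with 0.429, 0.915 and 0.763 CPM in the Chongqing libraries, 0.0974, 0.406 and 0.411 in Gansu, 0.0448, 0 and 0.220 in Shanxi and 14.9, 17.6 and 16.8 in Hubei. The other areas stayed under 1 CPM. On the log2 scale it differed from Hubei by −4.54 ± 0.41 (SE, adjusted p = 8.94e-07) in Chongqing and −5.71 ± 0.46 (SE, adjusted p = 2.86e-07) in Gansu. In Shanxi it was −7.46 ± 0.54 (SE, adjusted p = 1.31e-07), or −9.23 without Shanxi 3. Expansin-A13 (TRINITY_DN2582_c0_g1_i1_4), the most abundant alpha-expansin by FPKM, was among the members with the smallest spread of area means, with 18.6 ± 0.601 CPM in Chongqing, 14.2 ± 1.38 in Gansu, 18.5 ± 0.962 in Shanxi and 17.4 ± 1.61 in Hubei. Expansin-A15 (TRINITY_DN18920_c0_g4_i1_1) was one of 2 alpha-expansins higher in Chongqing than in Hubei, with 5.18 ± 0.454 CPM in Chongqing, 5.79 ± 0.673 in Gansu, 3.50 ± 0.538 in Shanxi and 1.37 ± 0.359 in Hubei.

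Beta-expansins, a sister group best known from grasses, had few unigenes and low levels. Expansin-B14 (TRINITY_DN25764_c0_g1_i1_2), matched to a rice protein, had 0.0429, 0.174 and 0.0424 CPM in the Chongqing libraries, 1.17, 1.62 and 1.11 in Gansu, 5.06, 4.83 and 4.18 in Shanxi and 15.7, 16.8 and 13.4 in Hubei. The areas ran Hubei, Shanxi, Gansu and Chongqing without overlap. The fitted log2 fold change was −3.56 ± 0.24 (SE, adjusted p = 5.00e-08) in Gansu and −1.70 ± 0.21 (SE, adjusted p = 2.27e-05) in Shanxi relative to Hubei. In Chongqing it was −7.39 ± 0.34 (SE, adjusted p = 1.01e-09), or −8.32 without Chongqing 2. Expansin-B3 (TRINITY_DN3797_c0_g1_i1_2) had 1 count over the Chongqing libraries, 30 over the Gansu libraries, 33 over the Shanxi libraries and 78 over the Hubei libraries. The ratio of Hubei to Chongqing was 80.97 (exact 95% counting interval 14.1 to 3239).

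Expansin-like proteins, relatives of expansins whose activity is not established, broke with the pattern. Of 6 tested unigenes, 1 was higher and 4 lower in Chongqing, 5 were higher and 1 lower in Gansu, and 4 higher and 1 lower in Shanxi than in Hubei. Their sum was 14.8 ± 0.346 FPKM in Chongqing, 102 ± 1.85 in Gansu, 58.4 ± 0.613 in Shanxi and 20.4 ± 0.356 in Hubei. Expansin-like B1 (TRINITY_DN9500_c0_g1_i1_1) had 11.7, 14.4 and 12.3 CPM in the Chongqing libraries, 77.6, 79.9 and 76.1 in Gansu, 28.1, 24.9 and 25.3 in Shanxi and 16.4, 16.5 and 16.3 in Hubei. Gansu stood above all other libraries, followed by Shanxi, Hubei and Chongqing. Its log2 fold change came to 2.25 ± 0.09 (SE, adjusted p = 1.81e-10) in Gansu and 0.67 ± 0.09 (SE, adjusted p = 2.70e-05) in Shanxi relative to Hubei, and −2.60 ± 0.09 (SE, adjusted p = 1.12e-10) in Chongqing relative to Gansu. Another expansin-like B1 unigene (TRINITY_DN29063_c0_g1_i1_3) was highest in Gansu too, with 0.314 ± 0.129 CPM in Chongqing, 6.40 ± 0.401 in Gansu, 0.687 ± 0.247 in Shanxi and 0.0304 ± 0.0263 in Hubei.

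Expansin-like A3 led in Shanxi. One unigene (TRINITY_DN21921_c0_g1_i3_3) had 0.129, 0 and 0.0424 CPM in the Chongqing libraries, 5.21, 5.68 and 6.04 in Gansu, 16.98, 14.6 and 16.9 in Shanxi and 0.279, 0.268 and 0.470 in Hubei. Shanxi stood above Gansu, and both stood above all Hubei and Chongqing libraries. On the log2 scale the change was 4.03 ± 0.30 (SE, adjusted p = 1.41e-07) in Gansu and 5.54 ± 0.30 (SE, adjusted p = 7.92e-09) in Shanxi relative to Hubei. In Chongqing relative to Hubei it was −2.46 ± 0.57 (SE, adjusted p = 0.0027), or −3.69 without Chongqing 1. That call was lost in limma on log2(FPKM + 1), where the value was −0.32 (adjusted p = 0.0527). The other expansin-like A3 unigene (TRINITY_DN27040_c0_g1_i1_2) had 0.172 ± 0.00239 CPM in Chongqing, 3.50 ± 0.655 in Gansu, 10.2 ± 0.767 in Shanxi and 1.45 ± 0.206 in Hubei, with a log2 fold change of 2.81 ± 0.21 (SE, adjusted p = 1.76e-07) in Shanxi relative to Hubei.

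Leucine-rich repeat extensins were lower outside Hubei as a family. All 6 unigenes were highest in Hubei, each with every Hubei library above the other 9. Of all tested unigenes, 27.3% were highest in Hubei and 14.6% had every Hubei library above all others. Of the 6, 5 were lower in Chongqing, 6 in Gansu and 5 in Shanxi than in Hubei, and none was higher. The median log2 fold change was −4.88 in Chongqing, −5.67 in Gansu and −1.70 in Shanxi relative to Hubei. The family summed to 5.73 ± 0.807 FPKM in Chongqing, 3.36 ± 0.196 in Gansu, 29.9 ± 1.72 in Shanxi and 143 ± 16.2 in Hubei. A single unigene (TRINITY_DN20459_c0_g1_i1_3) took 88.1% of the family's summed CPM in Chongqing, 92.0% in Gansu, 82.1% in Shanxi and 89.9% in Hubei.

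The most abundant of them matched leucine-rich repeat extensin 5, which in Arabidopsis acts in vegetative growth with its close relatives. It (TRINITY_DN20459_c0_g1_i1_3) had 10.7, 9.71 and 11.7 CPM in the Chongqing libraries, 6.82, 7.35 and 7.36 in Gansu, 54.7, 57.99 and 54.6 in Shanxi and 291, 296 and 349 in Hubei. The areas ran Hubei, Shanxi, Chongqing and Gansu without overlap. In Shanxi relative to Hubei its log2 fold change was −2.48 ± 0.08 (SE, adjusted p = 9.82e-11), in Gansu relative to Hubei −5.44 ± 0.10 (SE, adjusted p = 3.91e-13), and in Chongqing relative to Shanxi −2.38 ± 0.09 (SE, adjusted p = 1.73e-10). Leucine-rich repeat extensin 2, which in Arabidopsis acts in root hairs, had a unigene (TRINITY_DN20971_c0_g1_i1_3) with 0.257, 0.0871 and 0.169 CPM in the Chongqing libraries, 0.341, 0.254 and 0.370 in Gansu, 4.93, 4.998 and 6.52 in Shanxi and 20.5, 18.5 and 18.9 in Hubei. Hubei stood above Shanxi and Shanxi above the other areas. Its log2 fold change in Shanxi relative to Hubei was −1.81 ± 0.18 (SE, adjusted p = 2.73e-06).

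The other extensins were both matched to carrot proteins and had the 2 highest mean levels over all libraries among the members, by FPKM. The 33 kDa extensin-related protein (TRINITY_DN23233_c5_g1_i2_1), known from carrot root, had 1733, 1831 and 1710.0 CPM in the Chongqing libraries, 2992, 3099 and 2625 in Gansu, 3079, 2715 and 2880.0 in Shanxi and 2575, 2352 and 2298 in Hubei. Its mean over all libraries was 2428 FPKM, against 264 FPKM for the carrot extensin, 199 FPKM for the leading XTH9 unigene and a median of 5.27 FPKM over the 107 members. The Chongqing libraries lay below all others, and the Gansu and Shanxi libraries overlapped. Relative to Hubei, the log2 fold change was −0.45 ± 0.07 in Chongqing, 0.27 ± 0.07 in Gansu and 0.26 ± 0.07 in Shanxi (SE; adjusted p = 1.92e-04, 0.008 and 0.0105). This was the member that kept the summed level of Gansu above that of Chongqing: without it the members took 0.157% to 0.158% of counts in Chongqing libraries, 0.0994% to 0.104% in Gansu, 0.242% to 0.245% in Shanxi and 0.394% to 0.406% in Hubei.

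The carrot extensin match (TRINITY_DN23529_c0_g1_i2_3) had 175, 193 and 191 CPM in the Chongqing libraries, 362, 364 and 335 in Gansu, 269.9, 279.7 and 271 in Shanxi and 591, 588 and 676 in Hubei. The areas did not overlap, in the order Hubei, Gansu, Shanxi and Chongqing. The log2 difference from Hubei was −1.73 ± 0.07 in Chongqing, −0.81 ± 0.07 in Gansu and −1.18 ± 0.07 in Shanxi (SE; adjusted p = 2.40e-10, 3.85e-07 and 1.41e-08). Both members thus had their lowest level in Chongqing, where each was also lower than in Gansu, with log2 fold changes of −0.72 ± 0.07 (SE, adjusted p = 4.45e-06) and −0.92 ± 0.07 (SE, adjusted p = 1.72e-07).

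EXORDIUM-like proteins were lowest in Gansu for 4 of 5 unigenes, against 23.4% of all tested unigenes. All 5 unigenes were lower in Gansu and in Shanxi than in Hubei, and 4 were lower and 1 higher in Chongqing. Of all tested unigenes, 26.5% were lower in Gansu, 23.5% in Shanxi and 25.9% in Chongqing, and 23.6% were higher in Chongqing. EXORDIUM-like 3 (TRINITY_DN24531_c2_g1_i6_3), the most abundant, had 303, 308 and 284 CPM in the Chongqing libraries, 16.6, 15.6 and 13.5 in Gansu, 141, 127 and 140.4 in Shanxi and 272, 254 and 247 in Hubei. The areas did not overlap, with Chongqing highest and Gansu far below the others. The log2 difference was 4.29 ± 0.09 (SE, adjusted p = 1.85e-12) in Chongqing relative to Gansu, 1.14 ± 0.08 (SE, adjusted p = 4.18e-08) in Chongqing relative to Shanxi and −3.16 ± 0.08 (SE, adjusted p = 9.86e-12) in Gansu relative to Shanxi.

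EXORDIUM-like 5 (TRINITY_DN20488_c0_g1_i1_3) had 0.857, 1.002 and 1.14 CPM in the Chongqing libraries, 0.244, 0.203 and 0.247 in Gansu, 12.7, 10.9 and 12.1 in Shanxi and 71.1, 64.9 and 62.8 in Hubei. The areas ran Hubei, Shanxi, Chongqing and Gansu without overlap. Set against Hubei, its log2 fold change was −6.04 ± 0.13 in Chongqing, −8.12 ± 0.16 in Gansu and −2.48 ± 0.10 in Shanxi (SE; adjusted p = 8.24e-13, 5.43e-13 and 3.55e-10). EXORDIUM-like 2 had 3 unigenes, each highest in Hubei. The most abundant (TRINITY_DN9236_c0_g1_i1_2) was lowest in Chongqing, with 5.05 ± 0.194 CPM in Chongqing, 8.22 ± 1.06 in Gansu, 42.2 ± 4.75 in Shanxi and 106 ± 9.49 in Hubei and a log2 fold change of −4.39 ± 0.12 (SE, adjusted p = 8.65e-12) in Chongqing relative to Hubei. The next (TRINITY_DN8927_c0_g1_i1_1) was lowest in Gansu instead. It had 27.2 ± 0.656 CPM in Chongqing, 2.06 ± 0.287 in Gansu, 22.4 ± 1.83 in Shanxi and 53.3 ± 8.93 in Hubei, with a log2 fold change of 3.73 ± 0.15 (SE, adjusted p = 4.97e-10) in Chongqing relative to Gansu. The third (TRINITY_DN25828_c0_g1_i1_4) was lowest in Gansu too, with 1.72 ± 0.273 CPM in Chongqing, 0.0663 ± 0.0574 in Gansu, 10.1 ± 0.395 in Shanxi and 44.2 ± 0.950 in Hubei.

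**Figure D5:**
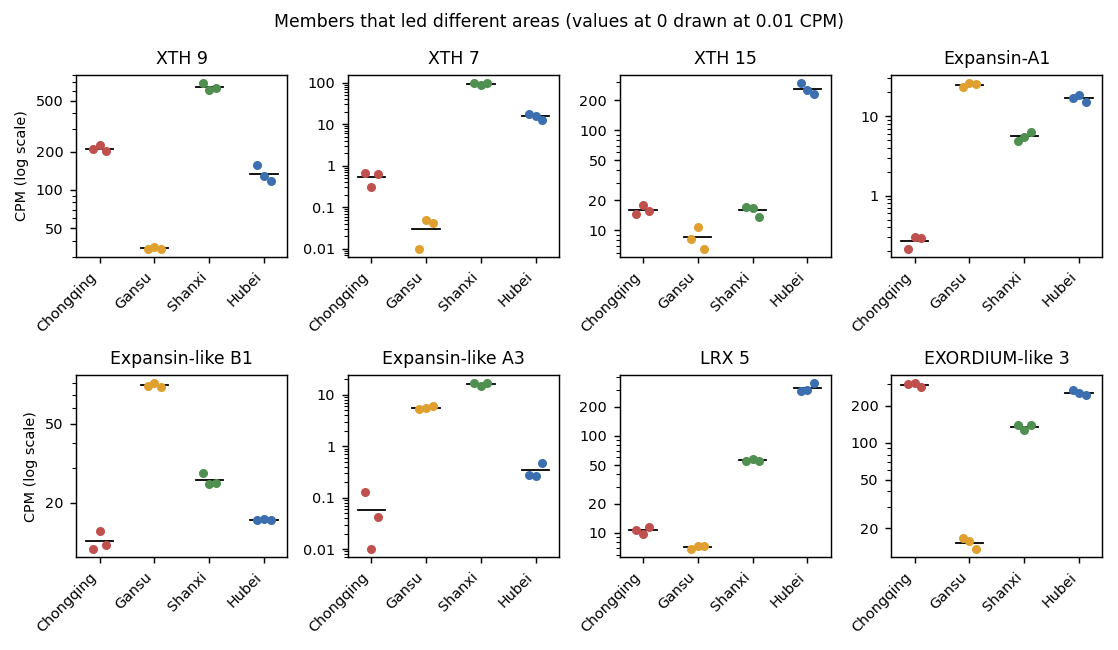
CPM of 8 members on log axes, each panel headed by its Swiss-Prot match; points are libraries, lines area means, and libraries at 0 are drawn at 0.01 CPM. XTH9, XTH7 and expansin-like A3 peak in Shanxi, expansin-A1 and expansin-like B1 in Gansu, EXORDIUM-like 3 in Chongqing, and XTH15 and leucine-rich repeat extensin 5 in Hubei.

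The plot of 8 members shows that each area led for some members. EXORDIUM-like 3 took 89.5% of the summed CPM of its family in Chongqing, 59.0% in Gansu, 61.1% in Shanxi and 48.9% in Hubei.

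Genes that act with these proteins in the wall were looked up by name in the same way. The list of wall sensors took receptor kinases named FERONIA, THESEUS or HERK, RALF peptides and wall-associated receptor kinases. Of its 46 tested unigenes, 5 were higher and 30 lower in Chongqing, 11 higher and 28 lower in Gansu, and 9 higher and 22 lower in Shanxi than in Hubei. The counts are not split by kind. THESEUS 1, a receptor kinase that senses wall defects in Arabidopsis (TRINITY_DN13019_c0_g1_i1_2), had 5.09 ± 1.09 CPM in Chongqing, 2.77 ± 0.240 in Gansu, 11.6 ± 0.597 in Shanxi and 91.6 ± 0.551 in Hubei. Its relative HERK 1 (TRINITY_DN23207_c0_g1_i4_4) had 39.8 ± 1.12 CPM in Chongqing, 19.4 ± 1.26 in Gansu, 26.2 ± 1.89 in Shanxi and 134 ± 9.47 in Hubei. Both receptors had their highest mean in Hubei and their lowest in Gansu. Of 18 tested unigenes of hydroxyproline modification, which prepares extensins for their sugar chains, 1 was higher and 11 lower in Chongqing, 1 higher and 11 lower in Gansu, and 2 higher and 6 lower in Shanxi than in Hubei. Among them, prolyl 4-hydroxylase 7 (TRINITY_DN17634_c0_g1_i1_4) had 1.54 ± 0.522 CPM in Chongqing, 0.473 ± 0.356 in Gansu, 24.9 ± 5.02 in Shanxi and 5.60 ± 0.881 in Hubei. The arabinosyltransferase RDN2 (TRINITY_DN18096_c0_g1_i2_1) had 8.41 ± 0.405 CPM in Chongqing, 3.86 ± 0.389 in Gansu, 5.45 ± 0.523 in Shanxi and 14.1 ± 0.814 in Hubei. The hydroxylase peaked in Shanxi and the transferase in Hubei, and both were lowest in Gansu. Of 23 tested cellulose synthase A unigenes, 3 were higher and 10 lower in Chongqing, 5 higher and 12 lower in Gansu, and 4 higher and 12 lower in Shanxi than in Hubei. The subunit 1 unigene (TRINITY_DN23613_c0_g1_i17_2) peaked in Hubei with 113 ± 9.10 CPM in Chongqing, 60.1 ± 7.98 in Gansu, 161 ± 8.11 in Shanxi and 483 ± 48.8 in Hubei. A subunit 5 unigene (TRINITY_DN24337_c0_g1_i38_3) peaked in Shanxi with 1.60 ± 0.494 CPM in Chongqing, 8.61 ± 1.91 in Gansu, 227 ± 12.8 in Shanxi and 1.84 ± 0.311 in Hubei. The subunit 5 unigene was low in Hubei.

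Plasma membrane proton pumps, which acidify the wall and so set the conditions for expansins, were more often higher than lower in Chongqing and Shanxi than in Hubei. The search term also caught calcium pumps, and of the 44 tested unigenes of the full list 21 were higher and 6 lower in Chongqing, 13 higher and 14 lower in Gansu, and 20 higher and 11 lower in Shanxi than in Hubei. The full list summed to 943 ± 22.4 FPKM in Chongqing, 592 ± 18.4 in Gansu, 735 ± 31.97 in Shanxi and 629 ± 10.6 in Hubei, so that Gansu lay below Hubei. The list was split after its values were seen. Of 24 tested proton pump unigenes, 14 were higher and 2 lower in Chongqing, 7 higher and 6 lower in Gansu, and 14 higher and 5 lower in Shanxi than in Hubei. Their sum, in which Gansu lay above Hubei, was 606 ± 18.9 FPKM in Chongqing, 436 ± 19.9 in Gansu, 497 ± 18.1 in Shanxi and 335 ± 9.75 in Hubei. Of 20 tested calcium pump unigenes, 7 were higher and 4 lower in Chongqing, 6 higher and 8 lower in Gansu, and 6 higher and 6 lower in Shanxi than in Hubei. Calcium pump 2 (TRINITY_DN21593_c1_g1_i6_3) had 48.4 ± 1.16 CPM in Chongqing, 37.4 ± 3.81 in Gansu, 50.4 ± 2.58 in Shanxi and 382 ± 29.5 in Hubei. Calcium pump 1 (TRINITY_DN23383_c0_g1_i3_2) had 223 ± 3.41 CPM in Chongqing, 0.280 ± 0.323 in Gansu, 12.6 ± 0.869 in Shanxi and 95.8 ± 15.9 in Hubei. Calcium pump 2 led in Hubei and calcium pump 1 in Chongqing. Of 31 tested SAUR unigenes, small auxin-responsive proteins that activate these proton pumps in Arabidopsis, 13 were higher and 10 lower in Chongqing, 11 higher and 9 lower in Gansu, and 15 higher and 5 lower in Shanxi than in Hubei. SAUR32 (TRINITY_DN6531_c0_g1_i1_1) had 104 ± 9.07 CPM in Chongqing, 82.9 ± 5.52 in Gansu, 16.9 ± 1.24 in Shanxi and 9.46 ± 0.968 in Hubei. SAUR20 (TRINITY_DN15956_c0_g2_i1_1) had 10.1 ± 0.219 CPM in Chongqing, 0.0468 ± 0.00507 in Gansu, 32.4 ± 3.13 in Shanxi and 0.0614 ± 0.0714 in Hubei. SAUR32 led in Chongqing, and SAUR20 was close to 0 in Gansu and Hubei. The last list took glycosidases named alpha-xylosidase, beta-galactosidase or alpha-L-fucosidase, types that include enzymes trimming xyloglucan. The names do not show that its members act on xyloglucan. Of its 57 tested unigenes, 17 were higher and 20 lower in Chongqing, 17 higher and 21 lower in Gansu, and 20 higher and 15 lower in Shanxi than in Hubei. Beta-galactosidase 17 (TRINITY_DN23132_c1_g2_i7_1) had 30.6 ± 1.45 CPM in Chongqing, 30.4 ± 1.76 in Gansu, 83.95 ± 3.58 in Shanxi and 0.151 ± 0.0979 in Hubei. Beta-galactosidase 8 (TRINITY_DN24445_c0_g1_i11_4) had 13.9 ± 0.700 CPM in Chongqing, 22.3 ± 4.10 in Gansu, 58.4 ± 4.08 in Shanxi and 3.17 ± 0.297 in Hubei. The shares of all tested unigenes called in these pairs are those given above for the members.

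Of the 102 tested members, 3 did not pass the overall test. They were the MUR3 unigene named above, endoglucanase 5 (TRINITY_DN20157_c3_g2_i3_1; adjusted p = 0.217), with 5.40 ± 0.603 CPM in Chongqing, 6.46 ± 0.475 in Gansu, 6.49 ± 1.10 in Shanxi and 5.12 ± 0.827 in Hubei, and a unigene matched to XTH2 (TRINITY_DN25391_c0_g2_i2_3; adjusted p = 0.889), with 2.33 ± 0.205 CPM in Chongqing, 2.47 ± 0.432 in Gansu, 2.14 ± 0.264 in Shanxi and 2.08 ± 0.961 in Hubei. A further 5 members were too low for the test, namely a pair of XTH9 unigenes, expansin-A14, a unigene of expansin-A1 and a second one of endoglucanase 5. The filter looked at the level reached in any area, so a member could pass it through 1 high area. At the 30-count minimum, the members just inside were an XTH9 unigene with 31.6 counts and an expansin-A1 unigene with 34.0, and those just outside were expansin-B16 with 29.8 and a pollen-specific leucine-rich repeat extensin-like protein 4 with 23.7. Over all libraries, 14 members averaged under 1 FPKM.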

How the data were processed

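RNA-seq was done on 12 root libraries. The deposited table of estimated counts made by the authors holds 1 value per unigene and library, with annotation, and the deposited FPKM table holds the same unigenes scaled by the authors for length and depth. Bowtie2, DESeq2, FastQC, RSEM, Trimmomatic and featureCounts are named in the submitters' processing notes, with roles and versions not given in the sources used here. No genome was used, and an unnamed column of the FPKM table was left out.

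Estimated counts were rounded and tested with edgeR 4.0.16 (R 4.3.3; TMM scaling, filterByExpr by area, quasi-likelihood F tests over all 4 areas and 6 pairs). P-values were adjusted by Benjamini-Hochberg over all 60756 tested unigenes of 67432, and a call is an adjusted p under 0.05. The standard error is the log2 fold change divided by the root of F. Scripts were tested on simulated data. Library totals were 19920182 to 23319714, and intervals and floors of 3 counts cover counting error only.

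The members and gene lists were chosen with earlier results of these data known. Genes were named by this rule: the 2 tested members of each family with the highest mean FPKM; in each pair of areas, the 4 largest increases and the 4 largest decreases among called members that averaged at least 3 on the log2 CPM scale, had separate libraries and over 3 counts in both areas, 1 unigene per description and direction; the 6 members with the smallest overall p; the 3 with the smallest ratio of highest to lowest area mean at the same minimum level; and the 2 called unigenes with the smallest overall p of each neighbouring list. Other members described were chosen after their values were seen. Alternatives were DESeq2 1.42.0, limma 3.58.1 on log2 FPKM, other filters and scalings, sums per Swiss-Prot entry, a replicate block and leaving out each library.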

Additional observations from a re-analysis of the deposited data

How the results depend on the processing

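The sums per Swiss-Prot entry test fewer features, 57 in place of 102, and gave 56 called in the test over all areas. By pair they gave 9 higher and 44 lower in Chongqing than in Hubei, 12 and 40 in Gansu relative to Hubei, 12 and 37 in Shanxi relative to Hubei, 22 higher and 18 lower in Chongqing than in Gansu, 11 higher and 33 lower in Chongqing than in Shanxi, and 11 higher and 34 lower in Gansu than in Shanxi. A 2-fold minimum left 19 higher and 18 lower in Chongqing than in Gansu and 10 higher and 49 lower in Chongqing than in Shanxi. Summing also turned the sign of 6 log2 fold changes, since each entry holds other unigenes: endoglucanase 25 (TRINITY_DN8601_c0_g1_i1_1) to −1.04 in Chongqing, −2.02 in Gansu and −1.29 in Shanxi, endoglucanase 6 (TRINITY_DN22005_c0_g1_i17_2) to −0.34 in Chongqing and the XTH9 unigenes TRINITY_DN22600_c0_g4_i1_1 to −0.45 in Chongqing and TRINITY_DN24950_c0_g3_i3_3 to −1.99 in Gansu, each relative to Hubei.

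Without 1 library, 97 to 100 members were called in the test over all areas. Higher and lower counts were 15 to 16 and 72 to 74 in Chongqing relative to Hubei, 19 to 21 and 65 to 72 in Gansu relative to Hubei, 20 to 22 and 54 to 60 in Shanxi relative to Hubei, 32 to 36 and 24 to 26 in Chongqing relative to Gansu, 15 to 19 and 52 to 56 in Chongqing relative to Shanxi, and 15 to 18 and 52 to 57 in Gansu relative to Shanxi. Shares of all tested unigenes in these reduced fits are not given here. The ranges thus do not set the members apart from other unigenes. Of the values for 115 single unigene results under all alternatives, 2509 kept their direction and side of the threshold, 10 lost the threshold, 4 gained it and 6 turned. Many of these unigenes were named for a high level, a large fold change or a small p in the same data. Such results were likely to hold under the alternatives, so the tally does not extend to the other members.

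Same-numbered libraries did not deviate together when all tested unigenes were taken at once (correlations −0.066 to 0.064). Such a correlation cannot exclude a link between same-numbered libraries that touches few unigenes. With the replicate number as a block, 96 members were called in the test over all areas, with 16 higher and 72 lower in Chongqing relative to Hubei, 20 and 70 in Gansu relative to Hubei, 21 and 59 in Shanxi relative to Hubei, 35 and 26 in Chongqing relative to Gansu, 17 and 55 in Chongqing relative to Shanxi and 16 and 54 in Gansu relative to Shanxi. Shares of all tested unigenes with this block are not given here. The numbers of calls thus do not set the members apart from other unigenes. Unigenes with few counts in an area have folds set by those counts.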
